A study of Zea mays with 16 samples.

Results

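Transcript levels were compared between 2 mm and 1 mm anthers of *Mu* active maize, a line in which the Mutator transposons are mobile. The comparison rests on 8 of the 16 labeled samples of the series, 4 at each anther length, taken as all samples assigned to the *Mu* active line. The plants grew from spotted kernels of ears that segregated for *Mu killer*, a locus that silences Mutator, and the methods describe a PCR test for its presence or absence. No agent was applied, and each sample held RNA pooled from several dissected anthers of plants that, by the methods, were grown in Stanford, California. The other 8 samples came from *Mu killer* siblings, which were hybridized in the second color of the same arrays.

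The anther of maize is the pollen-forming organ of the tassel, and its length is used to stage it. At 1 mm the cell layers have formed and most cells are still in the mitotic cycle, whereas at 2 mm the meiocytes are in the prophase of meiosis and the surrounding tapetum is in its secretory program. Mutator is a family of DNA transposons. Its autonomous element, *MuDR*, carries *mudrA*, which encodes the transposase, and *mudrB*, whose product has an unknown function according to the study. Both ends of the element are terminal inverted repeats that hold the promoters. Since the samples are whole anthers, a change in the share of a cell type and a change in RNA per cell cannot be told apart.

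Each of 8 arrays held 43451 spots, of which 42034 were maize probes, and none was saturated in any *Mu* active sample. The sample labels give the Cy3 samples, replicates 3 and 4 of each length, directly as *Mu* active. Replicates 1 and 2 are Cy5 samples that were assigned to *Mu* active because their array partner in Cy3 is *Mu killer*, while their own labels repeat the line of the partner. All 4 arrays of an anther length lay on a single slide with a scan time of its own, so that anther length and slide cannot be told apart, and every difference below holds for both. Whether the replicates came from separate plants is stated only as biological replicates, and p-values measure the spread between these samples. Levels are given as normalized log2 intensity, on which a difference of 1 is a doubling, and levels of different probes are not comparable since probes differ in how they bind. The offset used in background correction pulls the differences of dim probes toward 0.

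Between 1 mm replicates the levels of the maize probes correlated at 0.963 to 0.977 over 6 pairs, and between 2 mm replicates at 0.926 to 0.969. Over the 16 pairs of different length the correlations ran from 0.927 to 0.962, which overlaps the range at 2 mm. The correlations are across probes, which are not independent replicates. The sample least like the others was 2 mm replicate 4, with a mean correlation of 0.941 to the other 2 mm samples, against 0.952 to 0.959 for replicates 1 to 3.

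Of the 42034 probes, 845 were higher at 2 mm (2.01%) and 1104 were lower (2.63%), with a fold of at least 1.5 and an adjusted p under 0.05 in limma with Benjamini-Hochberg adjustment. The rises reached further than the falls. Among the probes that rose, 127 changed 4-fold to 16-fold and 18 by more, with a median log2 change of 1.09. Among those that fell, 34 changed 4-fold to 16-fold and none by more, and the median was -0.96. Signal well above background in each of the 8 samples was found for 808 of the probes that rose and 1091 of those that fell. The offset pulls differences of dim probes toward 0, so the call rule favors probes well above background. These counts therefore cannot show whether other transcripts appeared or disappeared. With the threshold raised to 2-fold, 477 probes rose and 501 fell.

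The balance of rises and falls depended on the scaling. Calls that were higher at 2 mm made up 43.4% of all calls. They made up 64.4% with the processed signals of the scanner software scaled to the 75th percentile (748 higher, 414 lower), 69.6% with median centring in place of loess within arrays (649 and 283), 19.5% with median scaling between arrays (71 and 294) and 5.42% with levels scaled to the spike-ins (405 and 7073). The median log2 change of all maize probes was 0.003 in the main setting, 0.116 with the processed signals and -0.502 with the spike-in scaling. The changes reported here are therefore relative to the middle of all maize probes.

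The spike-ins are 10 adenoviral E1A sequences, each at 32 spots, whose RNA is added in known amounts at labeling. Relative to the maize probes all 10 were higher at 2 mm in Cy3, by 0.51 to 0.79 on the log2 scale with a median of 0.67. In Cy5 all 10 were higher as well, by 0.27 to 0.54 with a median of 0.41. The Cy5 value turned on 1 mm replicate 2. Without it the median was 0.08 and 4 of the 10 were not higher at 2 mm, and without 1 mm replicate 1 it was 0.72. In Cy3 the median stayed between 0.59 and 0.70 with each sample left out, and all 10 remained higher. These values were not tested. The part of the amount of spike-in RNA added in this difference was not tested.

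**Figure D1:**
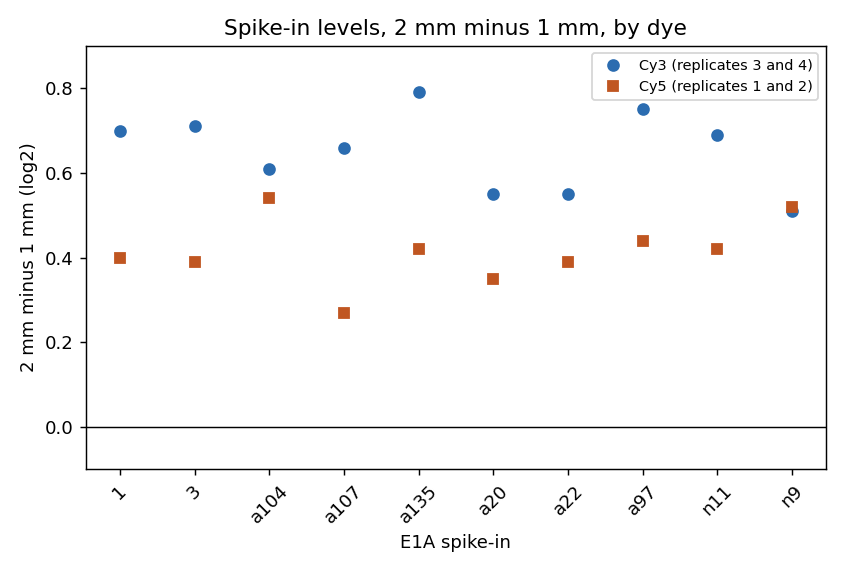
Difference in log2 level between 2 mm and 1 mm for each E1A spike-in (horizontal axis), in Cy3 (circles, replicates 3 and 4) and Cy5 (squares, replicates 1 and 2). Every spike-in lies above 0 in both colors, with a median of 0.67 in Cy3 and of 0.41 in Cy5, the latter 0.08 with 4 spike-ins at or below 0 when 1 mm replicate 2 is left out.

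The number of calls also moved when a sample was left out, which in itself leaves the test fewer samples. Left out in turn, 1 mm replicate 1 gave 431 higher and 444 lower probes, 1 mm replicate 2 gave 291 and 268, 1 mm replicate 3 gave 519 and 804, and 1 mm replicate 4 gave 196 and 221. At 2 mm, leaving out replicate 1 gave 408 and 274, replicate 2 gave 622 and 721, replicate 3 gave 342 and 353, and replicate 4 gave 1165 and 1521. The count rose only without 2 mm replicate 4. Of the probes that rose, 174 (20.6%) were called with each of the 8 samples left out, and of those that fell 148 (13.4%).

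**Figure D2:**
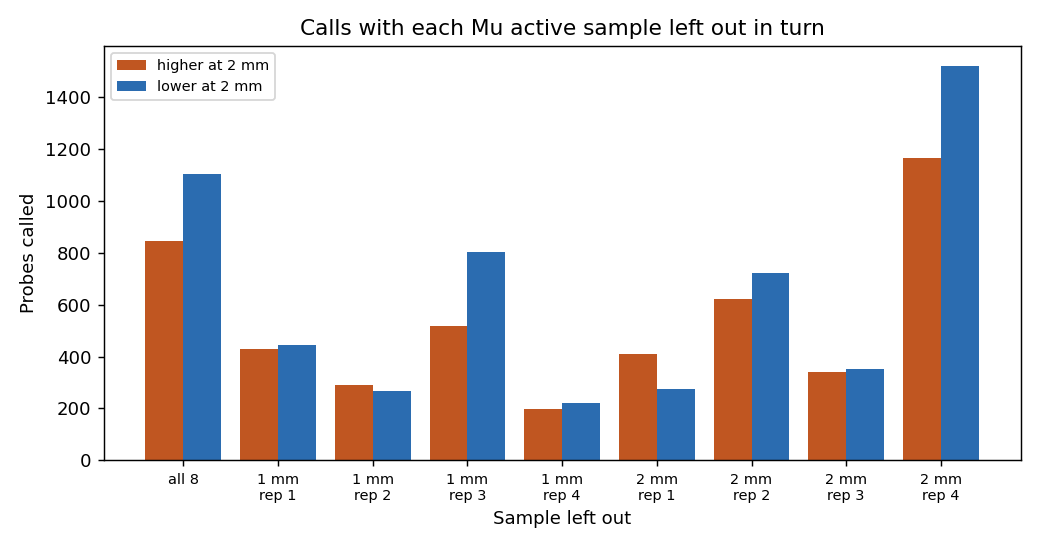
Number of probes called higher (orange) and lower (blue) at 2 mm with all 8 samples and with each sample left out. The counts fall to 196 and 221 without 1 mm replicate 4 and reach 1165 and 1521 without 2 mm replicate 4.

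At the offset used, which pulls differences of dim probes toward 0, changes were found mostly among bright probes. When the probes were split into 5 equal groups by mean level, the dimmest group held no call in either direction (median absolute log2 change 0.0497) and the next held 8 rises and 8 falls (0.19%). In the brightest group, with levels from 9.57 to 17.87, 520 probes rose and 608 fell, 13.4% together, and the median absolute change was 0.401. Calls also differed between the kinds of identifier in the array design. Probes for tentative consensus sequences, which are assembled from expressed sequence tags, rose in 2.63% and fell in 3.68% of 27161 cases, and 81.1% of them were well above background in all 8 samples. Probes for single tags and other accessions rose in 0.891% and fell in 0.69% of 14358 cases, with 55.6% above background throughout. Of the 350 probes for maize assembled genomic islands, which are genomic contigs, 3 rose and 6 fell (0.857% and 1.71%), although they were no brighter than single tags, with a median level of 6.84 against 6.93.

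In 2257 probes every 2 mm sample was above every 1 mm sample (5.37% of 42004 probes measured in all 8), and in 2687 every 2 mm sample was below (6.4%). Of the called probes, 767 of those that rose and 1000 of those that fell were separated in this way. The calls rest on the same 8 samples, so this separation is not separate support for them.

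The 12 largest rises, taken as 1 probe per transcript among called probes without overlap, ran from 34.4-fold to 175-fold, with adjusted p from 0.00147 to 0.00921. All 12 were still called with each sample left out. In 10 of them signal was well above background in all 8 samples, and the lowest of the others was marked in 1 of 4 samples at 1 mm, so that its fold is set against a level near background. Their median level at 1 mm was 7.60, 7.65, 7.79 and 7.57 in replicates 1 to 4, and at 2 mm it was 12.83, 13.23, 14.60 and 15.35. The 1 mm samples were thus close together and low, and every 2 mm sample lay far above them. No gene name is paired with any of the 12 in the files or the reference table, so only the first pair is given by identifier.

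The largest rise was at TC291473 (probe A_92_P021732), a tentative consensus sequence. Its level was 9.10, 8.77, 8.61 and 8.27 in the 1 mm replicates 1 to 4 and 15.40, 15.34, 16.49 and 17.33 in the 2 mm replicates. All 2 mm samples were above all 1 mm samples, and replicates 3 and 4 at 2 mm were the highest. The mean rose from 8.69 ± 0.346 to 16.14 ± 0.954 (SD, n = 4), a log2 change of 7.45 with SE 0.434 and an adjusted p of 0.00311 in limma.

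The second was at DR956480 (probe A_92_P004147), an expressed sequence tag. Its level was 6.95, 7.65, 7.52 and 7.47 at 1 mm and 13.60, 14.26, 14.69 and 15.19 at 2 mm. The lengths did not overlap, and the spread at 2 mm (SD 0.674) was again wider than at 1 mm (SD 0.308). The log2 change was 7.04 with SE 0.265, 132-fold, with an adjusted p of 0.00147 in limma. Both probes had signal well above background in each of the 8 samples.

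The 12 largest falls were smaller and less stable. They ran from 6.02-fold to 11.7-fold, with adjusted p from 0.00492 to 0.0468, and 3 of the 12 were called with each sample left out. Each of them had signal well above background at both lengths in every sample. The median level was 12.16, 12.68, 11.98 and 11.90 at 1 mm and 9.98, 9.92, 8.90 and 8.42 at 2 mm.

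The largest fall was at TC300108 (probe A_92_P034208). Its level was 13.90, 15.00, 13.28 and 14.59 at 1 mm and 12.65, 12.15, 9.21 and 8.59 at 2 mm. The 2 mm samples lay below all 1 mm samples but split into a pair near 12 and a pair near 9. The log2 change was -3.54 with SE 0.675 and an adjusted p of 0.0348 in limma, and it was called with 2 of the 8 samples left out in turn, namely 1 mm replicate 1 and 2 mm replicate 4 (adjusted p from 0.0405 to 0.096 over the 8). Over all 22 alternative settings it was called in 11.

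The next was at TC307051, for which the array holds a pair of probes. A_92_P032791 read 12.13, 11.65, 12.97 and 11.88 at 1 mm and 10.61, 9.66, 7.63 and 6.75 at 2 mm, a log2 change of -3.50 with SE 0.747 and an adjusted p of 0.0468. A_92_P032314 read 9.26, 9.06, 10.38 and 9.62 at 1 mm and 8.29, 7.43, 6.83 and 6.72 at 2 mm, a change of -2.26 with SE 0.433 and an adjusted p of 0.0353. Both probes placed the samples without overlap and fell furthest in 2 mm replicates 3 and 4. The first was not called with any sample left out (adjusted p from 0.0569 to 0.142) and the second only without 2 mm replicate 1 (from 0.0362 to 0.111).

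The samples at 2 mm thus differed among themselves in the probes that changed most. In 10 of the 12 rises both replicates 3 and 4 were above both replicates 1 and 2, and in 10 of the 12 falls both were below. Replicates 3 and 4 were the Cy3 samples and also a pair of arrays, so dye and array cannot be told apart within *Mu* active. The *Mu killer* samples hybridized to the same arrays carried the other dye. In them, replicates 3 and 4 were above replicates 1 and 2 in 8 of the 12 rises and below in 9 of the 12 falls. The share of all probes ordered in this way is not given here, so in neither line is the pattern shown to be particular to these probes. Their median levels at 2 mm over the 12 rises were 14.15, 13.70, 14.32 and 14.52 in replicates 1 to 4, and over the 12 falls 9.67, 9.20, 8.67 and 8.86.

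**Figure D3:**
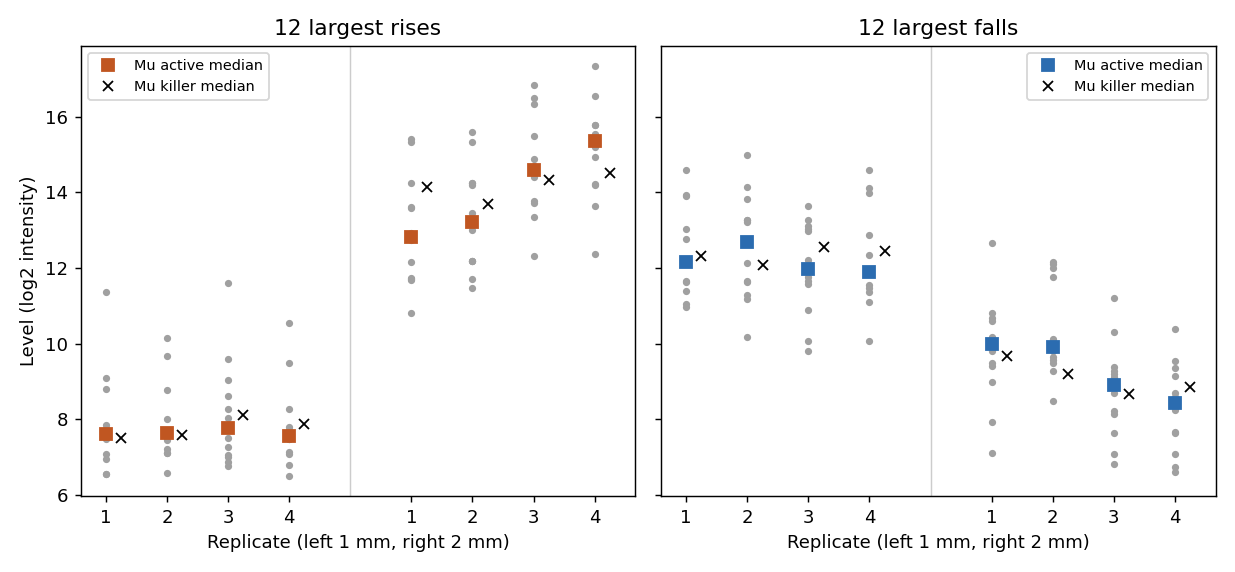
Level (log2 intensity) of the 12 largest rises (left) and 12 largest falls (right) in each *Mu* active sample, with 1 gray point per probe, the *Mu* active median as a square and the median of the *Mu killer* sample on the same array as a cross. At 2 mm the squares of replicates 3 and 4 are the highest of the rises (14.60 and 15.35) and the lowest of the falls (8.90 and 8.42).

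Over all calls the samples of both dyes were set side by side. The median log2 change of the probes that rose was 1.21 in the Cy3 samples and 1.01 in the Cy5 samples, and that of the probes that fell was -1 and -0.92. The direction was the same in both dyes for 844 of 845 rises and 1102 of 1104 falls. The calls were made from these same samples with both dyes together, so this agreement follows largely from the selection and is not separate support. No probe passed the adjusted threshold in a limma test of the difference in stage change between Cy3 and Cy5 (lowest adjusted p 0.108), and 2600 did at an unadjusted p under 0.05. With 2 samples per length, the Cy3 samples alone gave 2 rises and no fall and the Cy5 samples alone 12 rises and no fall in limma, while at an unadjusted p under 0.05 there were 2741 rises and 3034 falls in Cy3 and 3078 rises and 3882 falls in Cy5.

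The genes fixed in lists for meiosis, tapetum and male fertility, cell cycle, chromatin, cytoskeleton and stress held 130 symbols. Only 3 of them, all from the meiosis list, could be paired with a probe through the array text and the reference table, and of 42 marker symbols for anther and other cell types only *am1*, for meiocytes, was on the array by name. The labelled tissue could therefore not be checked against tapetal, leaf or pollen markers. The array text names 2 further cohesin genes, SMC1 and RAD21, which were added after the data had been opened.

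Cohesin is the ring that holds sister chromatids together from replication until anaphase. SMC1 and SMC3 form the ring and RAD21, a kleisin, closes it.

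Of the 17 probes named for cohesin, shugoshin and *ameiotic1*, 1 fell and none rose, where 2.63% and 2.01% of all probes did. The one that fell is among the 4 probes for SMC3. A_92_P034647 read 11.62, 11.44, 11.31 and 11.82 at 1 mm and 10.77, 10.79, 10.74 and 11.07 at 2 mm. Each 2 mm sample was below each 1 mm sample, and the spread within a length was small, with an SD of 0.222 at 1 mm and 0.152 at 2 mm (n = 4). The log2 change was -0.71 with SE 0.134 and an adjusted p of 0.0348, or 1.63-fold higher at 1 mm, and it was called only without 1 mm replicate 3 or without 2 mm replicate 4 when each sample was left out (adjusted p from 0.0299 to 0.0963). Over all 22 alternative settings it was called in 8, with adjusted p from 0.00346 to 0.388. The probes A_92_P027128, A_92_P008258 and A_92_P028580 had changes of -0.24, -0.15 and 0.15 with adjusted p of 0.143, 0.347 and 0.57. The 4 probes of this gene thus gave different values, and that of A_92_P008258 was 0.14 with the processed signals while that of A_92_P028580 was -0.02 with the processed signals and -0.35 with spike-in scaling.

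The 2 probes for SMC1 both had lower values at 2 mm, but neither passed the adjusted threshold. A_92_P006198 read 8.81, 8.23, 8.21 and 8.46 at 1 mm and 7.61, 7.93, 7.15 and 7.87 at 2 mm, without overlap, a log2 change of -0.79 with SE 0.202 and an adjusted p of 0.0745. A_92_P041560 read 8.62, 8.33, 8.57 and 9.08 at 1 mm and 7.84, 7.91, 7.90 and 8.41 at 2 mm, a change of -0.64 with SE 0.159 and an adjusted p of 0.0694. The second overlapped only because 2 mm replicate 4 lay above 1 mm replicate 2. Without 2 mm replicate 4 the changes were -0.92 and -0.73, with adjusted p of 0.0452 and 0.0493. Neither passed with any other sample left out (adjusted p up to 0.206 and 0.177), and each passed in 3 of 22 alternative settings.

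None of the 7 probes for RAD21 was called. By mean level they lie in the 2 dimmest of the 5 groups, where 0% and 0.19% of probes were called. Of the 7, 5 were well above background throughout. Their changes ran from -0.09 to 0.14 and their adjusted p from 0.40 to 0.957, at levels between 6.61 and 7.39 that lie in the range where the offset holds differences near 0.

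Shugoshin, encoded by *sgo1*, protects cohesin at centromeres in the first meiotic division. Its probe (ZmSGO1) had levels from 6.70 to 7.16 in the 8 samples and a change of -0.02 with SE 0.108 and an adjusted p of 0.93. *ameiotic1* is required in maize for cells of the anther to enter meiosis. The brightest of its 3 probes, A_92_P001166, read 7.61, 7.94, 8.83 and 8.70 at 1 mm and 7.52, 8.37, 7.89 and 7.54 at 2 mm, so that the lengths overlapped. Its change was -0.44 with SE 0.303 and an adjusted p of 0.469, made up of -1.05 in the Cy3 samples and 0.17 in the Cy5 samples. With the lines taken exactly as labelled, in both colors, it was -0.91 with an adjusted p of 0.00596, the only one of 22 alternative settings in which it passed. That reading takes both colors of an array as separate samples, so its p-values do not rest on separate arrays. The other probes, A_92_P016751 and A_92_P038130, had changes of -0.11 and -0.10, with adjusted p of 0.558 and 0.67.

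Among the 4 *MuDR*-named probes, the largest difference was at that named for the terminal inverted repeat on the *mudrA* side (MUDR-TIRA, A_92_P012404). Its level was 9.75, 9.84, 10.80 and 8.88 at 1 mm and 11.34, 12.44, 11.22 and 11.90 at 2 mm. All 2 mm samples were above all 1 mm samples, and 1 mm replicate 3 came closest. The log2 difference was 1.91 with SE 0.451, 3.75-fold, but its adjusted p was 0.0606, above the threshold. It was 2.33 with an adjusted p of 0.03 without 1 mm replicate 3, and over 22 alternative settings the adjusted p was under the threshold in 4 and ran from 0.015 to 0.467. The repeats are shared among members of the Mutator family, and the part of the element that the probe covers is not given in the sources used here.

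At the probes named for other parts of the element the samples of both lengths were intermixed. MUDRA (A_92_P031891) read 8.58, 8.19, 8.17 and 8.02 at 1 mm and 8.53, 8.44, 8.23 and 7.75 at 2 mm, with a mean of 8.24 at both lengths and an adjusted p of 0.994. MUDRB (A_92_P034510) read 9.42, 9.24, 9.01 and 9 at 1 mm and 9.60, 9.12, 8.63 and 8.68 at 2 mm, a difference of -0.17 with SE 0.135 and an adjusted p of 0.548. MUDRA-21 (A_92_P019862) ranged from 8.24 to 9.16 at 1 mm and from 7.94 to 9.09 at 2 mm, a difference of 0.03 with SE 0.234. At each of these 3 probes the lengths overlapped, and the sign of the difference changed with the scaling at MUDRA and MUDRA-21. In the *Mu killer* samples MUDRA ran from 8.08 to 8.51, MUDRB from 8.37 to 9.42 and MUDRA-21 from 7.90 to 9.14. According to the study, every maize line holds defective copies, *hMuDR*, that are also transcribed. Whether these probes tell such copies from the active element is not given in the sources used here.

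**Figure D4:**
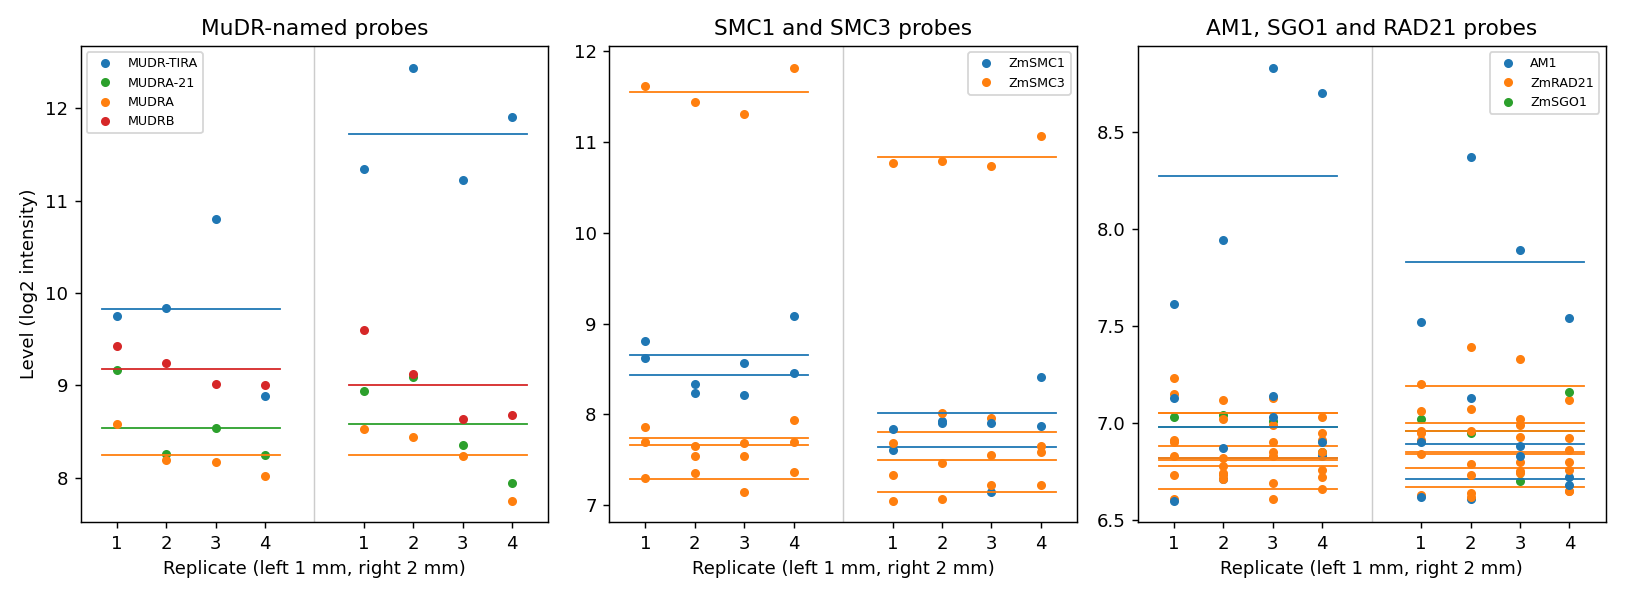
Level (log2 intensity) in each *Mu* active sample of the probes named for *MuDR* (left), SMC1 and SMC3 (middle) and AM1, SGO1 and RAD21 (right), with a line at the mean of each probe and length and a separate vertical scale in each panel. MUDR-TIRA is higher in every 2 mm sample, the brightest SMC3 probe is lower in every 2 mm sample, and the RAD21 probes stay between 6.61 and 7.39.

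Neither of the 2 brightest probes was called. TC310747 (A_92_P016636) read 17.76, 18.25, 17.88 and 18 at 1 mm and 17.77, 17.80, 17.81 and 17.71 at 2 mm, a log2 difference of -0.20 with SE 0.114 and an adjusted p of 0.38. TC279306 (A_92_P010774) read 18.14, 18.14, 17.13 and 16.65 at 1 mm and 17.58, 17.74, 16.89 and 16.96 at 2 mm, a difference of -0.22 with an adjusted p of 0.457. In the latter the Cy5 samples, replicates 1 and 2, were the brighter at both lengths.

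How far different probes of a transcript agreed was examined over 1357 identifiers with 2 probes, both well above background in all 8 samples. Their log2 changes correlated at 0.476 across identifiers, which is a description, and differed by a median of 0.305. At least 1 of the 2 probes was called for 186 identifiers. Both were called for 26 of them, in opposite directions for 1, and the signs of both probes were equal for 157. Over all 1357 identifiers the signs were equal for 63.9%.

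The number of probes well above background did not differ in a detectable way. It was 32697, 36722, 37687 and 37343 in the 1 mm replicates and 36077, 35618, 35683 and 36474 at 2 mm. The mean was 36112.2 ± 2310 at 1 mm and 35963.0 ± 396 at 2 mm (SD, n = 4), with an exact two-sided permutation p of 0.971, where 0.0286 is the smallest possible. A single sample, 1 mm replicate 1, was lower than all others. Without it the difference, 2 mm minus 1 mm, was -1287.7 probes instead of -149.2, and every 1 mm sample was above every 2 mm sample (exact permutation p 0.0286, the smallest that design allows). Of 153 negative control spots, 4 to 9 were marked in a sample.

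A probe was called on at a length if it was well above background in all 4 samples, or in exactly 3 if its mean processed signal exceeded the median among such probes. By this rule 33635 probes were on at 1 mm and 33840 at 2 mm, of which 32419 were on at both. Another 1421 were on only at 2 mm and 1216 only at 1 mm. These were dim probes near the cutoff. Their median level in the length where they were on was 6.78 and 6.80, against 7.85 and 7.86 for all probes on at 2 mm and at 1 mm, and 835 of the 1421 were marked in 3 samples at 1 mm as well. Of the 1421, 18 were also called in that direction, and of the 1216, 7 were. Among all probes 2.01% rose and 2.63% fell, while 0% and 0.19% were called in the 2 dimmest of the 5 groups by level. The order of these counts turned with any 1 mm sample left out. Without 1 mm replicate 1 there were 361 on only at 2 mm and 2732 on only at 1 mm. Without replicates 2, 3 and 4 the counts were 1145 and 1597, 1318 and 1432, and 1224 and 1448. A length with a sample left out needs fewer marks to be on, so these counts do not compare the lengths on equal terms. Taking the lines exactly as labelled also turned the order, with 482 and 2863, and gave a difference in marked probes of -1818 (exact permutation p 0.0286). In that reading the samples of a length are both colors of the arrays of replicates 3 and 4. Its p-value therefore treats the channels of an array as separate samples.

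A stricter contrast is between probes marked in all 4 samples of one length and in none of the other. There were 16 such probes at 2 mm and 31 at 1 mm. Their change is only bounded. In each sample of the dim length, the larger of the probe's own level and the lowest level marked in that sample was used. The bounds had a median of at least 1.18-fold for the 16 and at least 1.11-fold for the 31, with the largest at least 2.38-fold and at least 1.54-fold, and 1 probe in each direction was called. No gene name is paired with those that carried the largest bounds.

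A looser threshold of 1.5-fold with an unadjusted p under 0.05 was also used, since the sources used here give a p threshold without naming an adjustment. Over the 32419 probes on at both lengths, 1871 probes were higher at 2 mm (5.77%) and 2442 were lower (7.53%).

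The *Mu killer* siblings, measured on the same slides, gave 1660 higher and 1529 lower probes in the same limma fit, 7.59% of all probes against 4.64% in *Mu* active. A larger count does not show a larger change, and the difference in stage change was tested directly over the 16 samples. No probe passed the adjusted threshold (limma, lowest adjusted p 1), and 1106 had an unadjusted p under 0.05. Values of the probes described above are given side by side. At TC291473 it was 7.58 in *Mu killer* against 7.45 in *Mu* active, at TC300108 -3.37 against -3.54, and at MUDR-TIRA 1.53 with an adjusted p of 0.00828 against 1.91. At MUDRB it was 0.45 against -0.17 and at MUDRA-21 0.60 against 0.03, with neither difference past the threshold.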

How the data were processed

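The authors extracted 8 two-color arrays with Agilent Feature Extraction 9.5.3.1, and the deposited scanner output gives intensity, local background and a flag set at 2.6 SD over background. The deposited text and flag columns hold other values, such as identifiers and outlier marks. A deposited table of normalized intensity was used only as an alternative, since its columns follow the array of another replicate and the other color. Intensities were corrected by normexp (offset 50), normalized by loess within and Aquantile between arrays, and split into channels. Outlier spots, 1 to 7 per *Mu* active sample, were left out. Stage and dye were fitted with limma 3.58.1 in R 4.3.3 over 42034 probes, and lines were compared with an intraspot correlation over all channels, outlier spots kept. In simulated data for this comparison (21002 probes), 35% of 2-fold and 80% of 4-fold changes were recovered, and 5 of 120 calls were false. Symbols came from the array text and the Zm-B73-REFERENCE-NAM-5.0 gene table. Named probes were the 2 largest changes per direction, the 2 brightest, *MuDR* probes and members of gene lists. The members and lists were chosen with earlier results of these data known. Replicate numbers did not pair samples, as given in the closing section. Precision is limited by the number of arrays.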

Additional observations from a re-analysis of the deposited data

Results flagged for a closer look

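Over 44 sets of 4 samples, the gap of an end sample to its neighbor took an unusual share of the range in 3, where chance gives about 1 in 20. For the SMC3 probe A_92_P034647 at 2 mm the share was 0.86, with replicate 4 at 11.07 and the other samples at 10.79 or below. For the SMC1 probe A_92_P041560 at 2 mm it was 0.885, with replicate 4 at 8.41 above 7.91. For the SMC3 probe A_92_P027128 at 1 mm it was 0.848, with replicate 4 at 7.94 above 7.69.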

How the results depend on the processing

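The counts higher and lower at 2 mm, 845 and 1104 in the main setting, moved with several choices, and the cause was not tested. They were 748 and 414 with processed signals, 71 and 294 with median scaling between arrays, 649 and 283 with median centring within arrays, 405 and 7073 with spike-in scaling, 477 and 501 at 2-fold, 1608 and 1766 with the lines exactly as labelled, 2 and 0 in Cy3 alone and 12 and 0 in Cy5 alone, where fewer samples entered. The reading as labelled takes both colors of an array as separate samples. The number of higher probes ran from 196 to 1165 and of lower probes from 221 to 1521 with each sample left out. With replicate number as a block they were 422 and 660. The numbers do not pair the samples, since deviations from the stage means correlated at 0.0351, 0.0188, -0.296 and 0.31 for numbers 1 to 4 and no sample correlated best with its own number. A stage change allowed to differ by dye, chosen after seeing the data, gave 898 and 1017.

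The 4313 probes past 1.5-fold and an unadjusted p under 0.05 became 7195 with processed signals and 3665 to 5003 with a sample left out. The difference in probes above background, -149.2, was -1818 with the lines as labelled and -1287.7 to 375.7 with a sample left out. The exact permutation p of 0.0286 for the lines as labelled treats both colors of an array as separate samples. On only at 2 mm were 2338 with all 4 replicates needed, 31 if off in all 4, 482 with lines as labelled and 361 to 1977 with a sample left out, and on only at 1 mm 59, 2863 and 822 to 2732 for the latter 3. With a sample left out, chosen after seeing the data, the median spike-in difference was 0.59 to 0.70 in Cy3 and 0.08 to 0.72 in Cy5. The test of the difference between the lines gave 0 probes in limma under each setting, with 1106, 283 and 1185 at an unadjusted p under 0.05 in the main setting, with median centring and at offset 0.

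Signs turned at probes not called in the main setting. MUDRA was 0.003 at offset 0, 0.02 with quantile scaling, 0.03 with median centring, 0.01 with the deposited table, 0.10 in Cy5 and -0.10 to 0.11 with a sample left out. MUDRA-21 was -0.25 with median scaling between arrays, -0.47 with spike-ins, -0.24 in Cy3 and -0.20 to 0.17 with a sample left out. MUDRB was 0.03 in Cy5. ZmSGO1 was 0.13 with median scaling, 0.06 with the deposited table and -0.12 to 0.06 with a sample left out. AM1 was 0.06 (A_92_P016751) and 0.04 (A_92_P038130) with median scaling, 0.0017 (A_92_P016751) with the deposited table, and 0.17 (A_92_P001166) and 0.02 (A_92_P038130) in Cy5. ZmSMC3 was 0.14 (A_92_P008258) and -0.02 (A_92_P028580) with processed signals and -0.35 (A_92_P028580) with spike-ins. TC279306 was 0.27 with processed signals, 0.07 with quantile scaling, 0.08 with the deposited table, 0.06 as labelled and 0.04 in Cy3, and TC310747 was 0.45 with processed signals. The 5 called probes of TC291473, DR956480, TC300108 and TC307051 kept their direction throughout, as did SMC1 and MUDR-TIRA, whose adjusted p ran from 0.015 to 0.467.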
